A study of Mus musculus with 18 samples.

Results

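The MHC class I antigen presentation genes described here are 10 genes chosen by name, out of 43346 genes in the expression table: H2-K1, H2-D1, B2m, Tap1, Tap2, Tapbp, Psmb8, Psmb9, Psmb10 and Nlrc5. All 10 were found, and all 10 passed the filter on low reads (at least 10 reads in at least 3 libraries), which left 14213 genes. They were measured in MC3T3-E1 subclone 4, a line of pre-osteoblasts from the calvaria (skull vault) of C57BL/6 mice, at passage 9. Cells of both arms were kept for 3 days in osteogenic medium, which drives bone cell differentiation. One arm received 2.5 µM EPZ6438, an inhibitor of EZH2, and the other received 0.25% DMSO as vehicle, and the labels do not say if DMSO was present with EPZ6438. Each arm gave 3 RNA samples, and 2 histone marks were mapped by chromatin immunoprecipitation. No label calls the samples separate cultures, so the p-values cover the spread among these samples alone, and that spread may be technical. The question asked here was whether the class I genes were higher or lower under EZH2 inhibition.

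MHC class I molecules show peptides from inside a cell to CD8 T cells. Proteasomes cut cytosolic proteins into peptides, the TAP transporter carries the peptides into the endoplasmic reticulum, and tapasin helps load them onto a heavy chain paired with beta-2-microglobulin. Interferon induces most of these genes, including the immunoproteasome subunits, and NLRC5 is a transactivator that acts on class I promoters through a module known as SXY. EZH2, the catalytic subunit of Polycomb repressive complex 2, writes H3K27me3, a mark of silenced genes, and H3K4me3 marks active and poised promoters.

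The promoters of the presenting molecules are shown first because NLRC5 acts on class I promoters. The H3K4me3 peaks described at the end also lie beside their start sites. Of the SXY module, only the X2 and Y letters were searched. RefSeq promoter windows (GRCm38.p6, the assembly known as mm10) matched 8 of the 10 genes; Tap2 and Nlrc5 were not matched. A 30-base stretch from the X2 letters (TGACG) to the Y box letters (ATTGG), with 20 bases between them, was held by H2-K1, H2-D1 and B2m, and by H2-M3, a class I heavy chain gene outside the 10. Capitals mark the X2 and Y letters, and each line runs 5′ to 3′ along its gene.
H2-K1: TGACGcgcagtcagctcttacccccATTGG
H2-D1: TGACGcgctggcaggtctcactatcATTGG
B2m: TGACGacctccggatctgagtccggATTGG
H2-M3: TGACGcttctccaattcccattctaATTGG
This spacing was chosen after these promoters were seen. On either strand it occurred in 31 of 32851 RefSeq windows of 300 bases (0.0944%), which belong to 27 genes. TGACG alone was in 20.8% of windows and ATTGG alone in 37.4%. A match is a description of letters and not a measured binding site.

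The 250 bases before the start are given for the 3 genes with the spaced letters, for Psmb8, the gene with the smallest adjusted p among the 10, and for Tap1, whose window overlaps that of Psmb9 on the other strand. Capitals mark matches, on either strand, to a kappaB site (GGGNNTTCC, or the same letters with 3 free bases in place of 2), an interferon regulatory factor core (GAANNGAAA, or GAAA on both sides of 2 free bases) and a GAS site (TTCNNNGAA). They also mark the X2 and Y letters of the lines above and, in Tap1, TGACG and the reverse complement of ATTGG. Other ATTGG matches are left in lower case.
H2-K1, minus strand, chr17:34000334-34000583: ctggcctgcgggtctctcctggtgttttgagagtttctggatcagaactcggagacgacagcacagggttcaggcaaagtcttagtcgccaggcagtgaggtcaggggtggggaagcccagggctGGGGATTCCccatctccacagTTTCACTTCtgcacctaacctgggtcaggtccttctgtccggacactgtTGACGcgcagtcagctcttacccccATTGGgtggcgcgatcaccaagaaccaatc
H2-D1, plus strand, chr17:35262844-35263093: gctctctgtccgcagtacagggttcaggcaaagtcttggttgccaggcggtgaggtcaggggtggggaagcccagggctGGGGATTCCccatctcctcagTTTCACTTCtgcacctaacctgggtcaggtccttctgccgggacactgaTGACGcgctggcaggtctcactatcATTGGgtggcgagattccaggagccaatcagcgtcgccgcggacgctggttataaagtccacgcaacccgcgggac
B2m, plus strand, chr2:122147437-122147686: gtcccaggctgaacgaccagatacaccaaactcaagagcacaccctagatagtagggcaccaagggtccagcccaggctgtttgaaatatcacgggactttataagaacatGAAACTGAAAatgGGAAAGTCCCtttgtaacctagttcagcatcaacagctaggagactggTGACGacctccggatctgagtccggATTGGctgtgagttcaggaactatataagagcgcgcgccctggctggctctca
Psmb8, plus strand, chr17:34197945-34198194: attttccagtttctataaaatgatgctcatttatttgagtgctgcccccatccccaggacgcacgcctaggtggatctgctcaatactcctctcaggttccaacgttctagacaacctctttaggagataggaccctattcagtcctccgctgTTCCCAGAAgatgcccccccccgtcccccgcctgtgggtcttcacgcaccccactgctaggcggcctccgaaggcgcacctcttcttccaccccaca
Tap1, plus strand, chr17:34187306-34187555: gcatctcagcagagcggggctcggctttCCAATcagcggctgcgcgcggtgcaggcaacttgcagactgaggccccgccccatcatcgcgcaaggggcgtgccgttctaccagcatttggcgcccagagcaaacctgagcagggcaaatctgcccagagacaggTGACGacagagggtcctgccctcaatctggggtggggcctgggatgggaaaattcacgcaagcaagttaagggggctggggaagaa
The H2-K1 and H2-D1 windows share an identical run of 47 bases, which covers the kappaB letters and ends before the X2 letters. The kappaB letters were in 9.74% of all windows and, among the 8 matched genes, in H2-K1, H2-D1 and B2m. The interferon regulatory factor core was in 10.4% of windows and in the same 3 genes. The GAS letters were in 8.30% of windows and, of the 8, in Psmb8. Both X2 and Y letters occur in the stretch between Tap1 and Psmb9, but not at the spacing above.

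Libraries held 18807156 to 25365513 reads in genes, with 18289 to 19196 genes at 1 read or more. Levels are given as RPKM, which scales the reads of a gene by its length in kb and by the reads in genes of its library (per 1000000). Changes are log2 differences of RPKM + 0.1, EPZ6438 minus DMSO, a scale that understates the change of low genes. A gene is called changed where limma's p-value, adjusted over all 14213 genes by the Benjamini-Hochberg method, is under 0.05. The label of bone-forming cells was checked on 7 osteoblast markers, all of them expressed, and 5 of the 7 rose (3.80% of all tested genes). Bone sialoprotein (Ibsp) stood at 193 ± 20.8 RPKM in DMSO and 587 ± 15.5 in EPZ6438 (SD, n = 3; log2 change 1.61). The transcription factor gene Sp7 had a log2 change of 0.91, alkaline phosphatase (Alpl) 1.14 and osteocalcin (Bglap) 1.504, with limma adjusted p of 0.000704 to 0.00162. The merged H3K27me3 list shrank from 143399 peaks in DMSO to 20764 in EPZ6438.

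The 10 class I genes did not move in 1 direction. Nlrc5 rose, Tapbp and Psmb8 fell, and 7 did not pass the test. Over all tested genes 3.80% rose and 3.24% fell, 7.04% in all. The median log2 change of the 10 was -0.29, against -0.03 over all tested genes. The libraries of the arms did not overlap for 6 of the 10 genes, against 26.7% of all tested genes. H2-K1 and Nlrc5 were higher in every EPZ6438 library than in any DMSO library (12.0% of all tested genes), and B2m, Tap2, Tapbp and Psmb8 were lower (14.7%). In RNA from whole cultures, fewer cells that express a gene and less RNA per cell cannot be told apart.

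**Figure D1:**
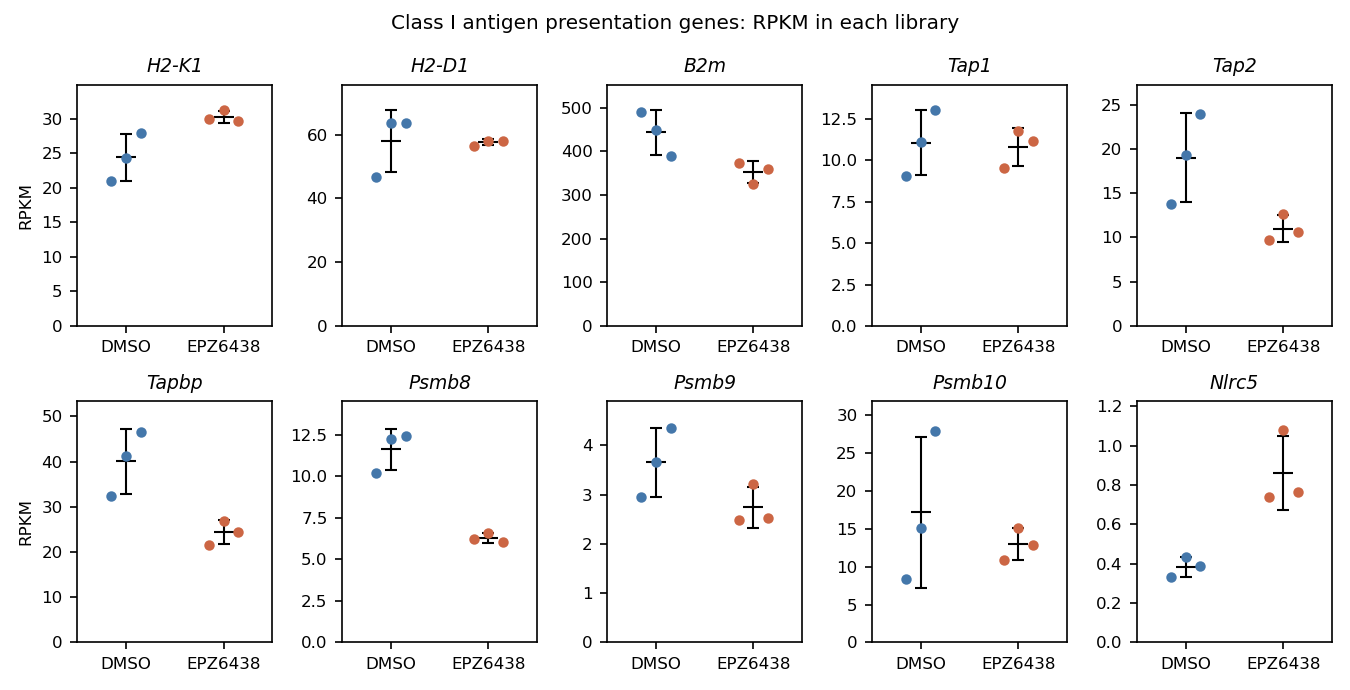
RPKM of the 10 class I genes in each library (blue dots, 3 DMSO libraries; orange dots, 3 EPZ6438 libraries), each panel on its own linear axis from 0, with the mean as a bar and the SD as whiskers. Psmb8 lies between 10.2 and 12.4 in DMSO and between 6.04 and 6.60 in EPZ6438, Nlrc5 is higher in every EPZ6438 library, and Psmb10 spreads from 8.37 to 27.9 within DMSO.

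The levels spanned a wide range. In DMSO the order by mean was B2m, H2-D1, Tapbp, H2-K1, Tap2, Psmb10, Psmb8, Tap1, Psmb9 and Nlrc5. The ranges of neighbours overlapped from H2-K1 to Tap2, from Tap2 to Psmb10, from Psmb10 to Psmb8 and from Psmb8 to Tap1, and did not overlap elsewhere in that order. In EPZ6438 the order was B2m, H2-D1, H2-K1, Tapbp, Psmb10, Tap2, Tap1, Psmb8, Psmb9 and Nlrc5. There the ranges overlapped only between Psmb10 and Tap2 and between Tap2 and Tap1. By their means, H2-K1 and Tapbp, Tap2 and Psmb10, and Psmb8 and Tap1 stood in opposite order in the arms. Only H2-K1 and Tapbp did so without overlap in either arm.

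The presenting molecule itself consists of a heavy chain and its light chain. H2-K1, a classical heavy chain gene at chr17:33996017-34000333, had 21.0, 24.4 and 27.9 RPKM in DMSO libraries 1, 2 and 3 and 29.9, 31.3 and 29.7 in EPZ6438 libraries 1, 2 and 3. All EPZ6438 libraries lay above all DMSO libraries, the nearest by less than the spread within DMSO. The log2 change was 0.32 (SE 0.11, unadjusted 95% interval 0.06 to 0.58), which did not pass in limma (adjusted p = 0.154). Without DMSO library 3 it was 0.42 and passed (limma adjusted p = 0.0467). That was the only 1 of the 14 alternatives in which H2-K1 passed, and the highest adjusted p of the 14 was 0.384.

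H2-D1, the other classical heavy chain gene here, at chr17:35262730-35267499, had 46.7, 63.5 and 63.8 RPKM in DMSO and 56.5, 58.1 and 58.1 in EPZ6438. The EPZ6438 libraries fell inside the DMSO range, with means of 58.0 ± 9.80 and 57.6 ± 0.956 (SD, n = 3). The log2 change was 0.00 (SE 0.13, 95% interval -0.30 to 0.31; limma adjusted p = 0.987). Heavy chain genes of this region have near-identical stretches, so reads could be split or shared among them, and their values are uncertain to that extent.

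B2m, which encodes beta-2-microglobulin, the light chain shared by class I molecules, lies at chr2:122147686-122153083 and was the most abundant of the 10. It had 491, 449 and 389 RPKM in DMSO and 373, 325 and 359 in EPZ6438. Every EPZ6438 library was below every DMSO library, yet the gap between DMSO library 3 and EPZ6438 library 1 was smaller than the spread within either arm. Its log2 change was -0.33 (SE 0.11, 95% interval -0.58 to -0.07) and did not pass in limma (adjusted p = 0.139). B2m lies inside the annotated span of Patl2, which is listed at 0 in all 6 libraries.

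Peptide transport and loading rest on TAP1 and TAP2, which together form the transporter, and on tapasin. Tap1 (chr17:34187553-34197225) had 9.08, 11.1 and 13.0 RPKM in DMSO and 9.54, 11.7 and 11.2 in EPZ6438, and the arms overlapped. Its log2 change was -0.02 (SE 0.15, 95% interval -0.38 to 0.33; limma adjusted p = 0.951). Tap2 (chr17:34203527-34216321) had 13.8, 19.3 and 23.9 RPKM in DMSO and 9.71, 12.7 and 10.6 in EPZ6438. All its EPZ6438 libraries were below all DMSO libraries, with a wide DMSO spread. The log2 change of Tap2 was -0.76 (SE 0.20, 95% interval -1.24 to -0.28), which did not pass in limma (adjusted p = 0.0747). It passed without DMSO library 1 (log2 -0.97, limma adjusted p = 0.0148) and by voom on recovered reads (adjusted p = 0.0458). With the replicate number as a block it passed as well (limma adjusted p = 0.0243). Those were 3 of the 14 alternatives, and the highest adjusted p of the 14 was 0.240.

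Tapbp, the tapasin gene at chr17:33915899-33929288, fell. It had 32.3, 41.2 and 46.6 RPKM in DMSO and 21.6, 26.9 and 24.4 in EPZ6438, with no overlap. Its log2 change was -0.70 (SE 0.15, 95% interval -1.05 to -0.35; limma adjusted p = 0.0362). The call was lost without DMSO library 2 (adjusted p = 0.146), without DMSO library 3 (0.0528) and without EPZ6438 library 1 (0.122), 2 (0.0756) or 3 (0.135). It was also lost with median-of-ratios scaling (adjusted p = 0.0590) and with no filter on low reads (0.0796). Tapbp shares 3421 bases of its annotated span with Zbtb22, which had 11.2 ± 1.89 RPKM in DMSO and 12.8 ± 0.974 in EPZ6438 (SD, n = 3). It also overlaps the antisense gene Gm19412 (5.50 ± 2.20 and 4.23 ± 0.363 RPKM). The strand setting of the counting is not given in the sources used here, so reads from bases that both genes of such a pair share cannot be assigned with certainty.

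The immunoproteasome replaces the 3 catalytic subunits of the standard proteasome with PSMB8, PSMB9 and PSMB10. Psmb8 (chr17:34197721-34201454) fell, and held its call under every alternative run. It had 10.2, 12.2 and 12.4 RPKM in DMSO and 6.25, 6.60 and 6.04 in EPZ6438. The EPZ6438 libraries lay close together and well below DMSO library 1, the lowest of its arm. For Psmb8 the log2 change was -0.87 (SE 0.11, 95% interval -1.13 to -0.61; limma adjusted p = 0.00495), with adjusted p of 0.00231 to 0.0396 over the 14 alternatives.

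Psmb9 (chr17:34181988-34187764), which lies head to head with Tap1 and shares 212 bases with it, had 2.95, 3.66 and 4.35 RPKM in DMSO and 2.49, 3.23 and 2.52 in EPZ6438. EPZ6438 library 2 lay within the DMSO range, and the other EPZ6438 libraries below it. The log2 change was -0.39 (SE 0.18, 95% interval -0.82 to 0.03; limma adjusted p = 0.279). Psmb10 (chr8:105935728-105938392) had 8.37, 15.2 and 27.9 RPKM in DMSO and 10.9, 15.1 and 12.8 in EPZ6438. The highest DMSO library of Psmb10 was 3.34 times the lowest, and all EPZ6438 libraries fell inside that range. The log2 change of Psmb10 was -0.25 (SE 0.39, 95% interval -1.17 to 0.68; limma adjusted p = 0.780), and without DMSO library 3 it was 0.19.

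Nlrc5, the class I transactivator gene at chr8:94472763-94527272, rose from a low level. Its read numbers were 48, 74 and 75 in DMSO and 119, 199 and 117 in EPZ6438. These gave 0.334, 0.435 and 0.387 RPKM in DMSO and 0.739, 1.08 and 0.764 in EPZ6438, with no overlap. For Nlrc5 the log2 change was 0.97 (SE 0.20, 95% interval 0.51 to 1.44; limma adjusted p = 0.0316). The call was lost when any 1 of the 6 libraries was left out (limma adjusted p from 0.0560 without DMSO library 3 to 0.110 without EPZ6438 library 2) and with no filter on low reads (0.138). With a pseudocount of 1 RPKM the log2 change was 0.42, and with 0.01 RPKM it was 1.13.

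**Figure D2:**
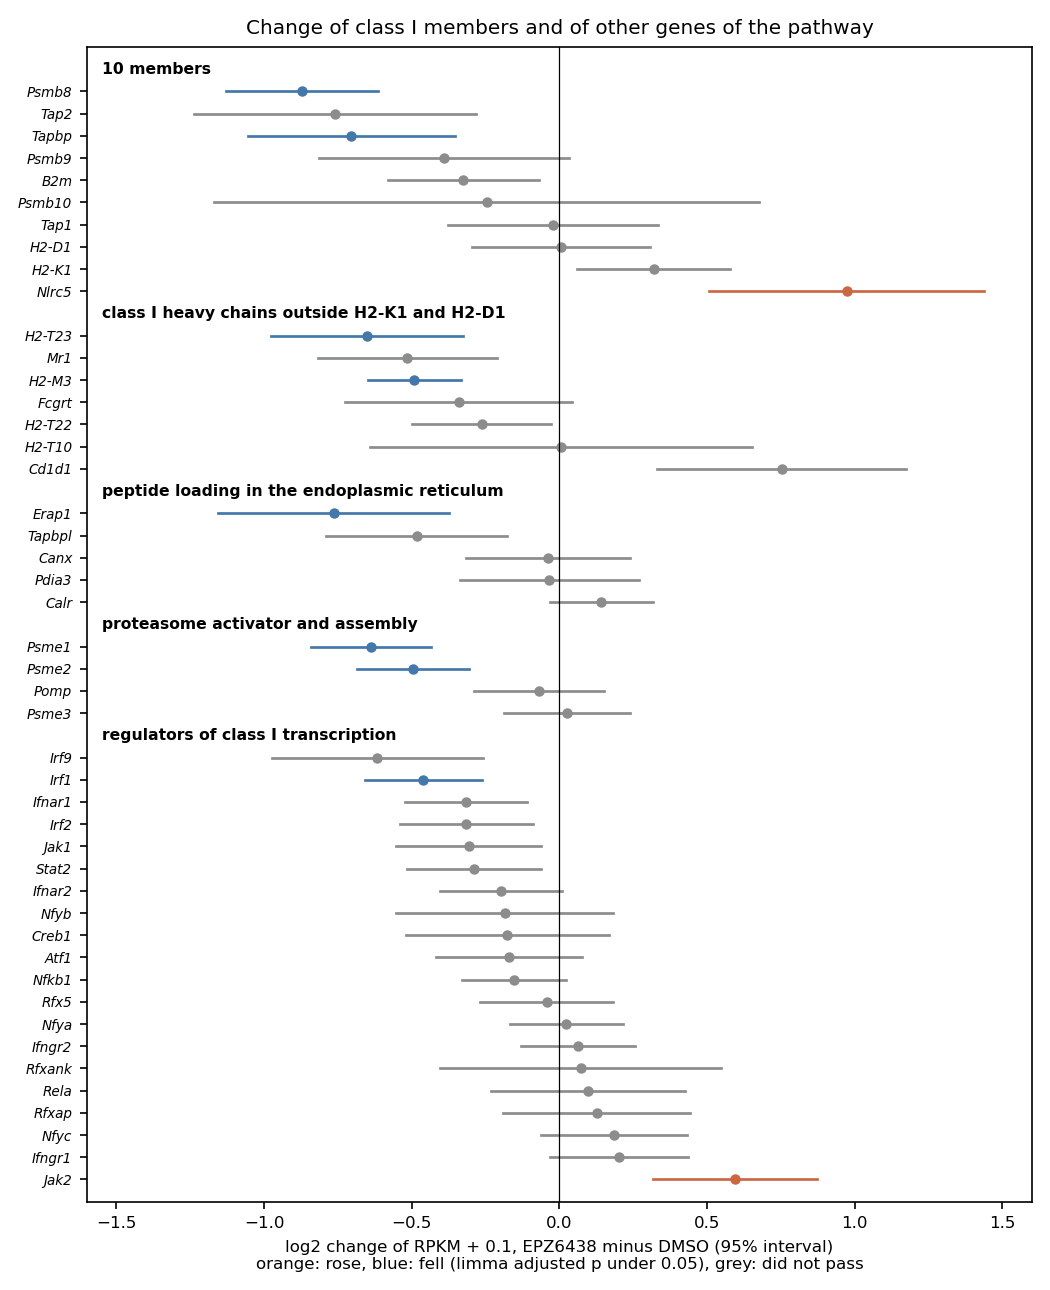
Log2 change of RPKM + 0.1 (EPZ6438 minus DMSO, x axis) of the 10 class I genes and of the tested genes of 4 other lists of the pathway (y axis), with unadjusted 95% intervals as lines. Orange genes rose, blue genes fell and grey genes did not pass the limma test; of the 10 class I genes, Psmb8 has the lowest value, -0.87, and Nlrc5 the highest, 0.97.

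The DMSO libraries differed among themselves along much of the list. DMSO library 1 was the lowest DMSO library for 9 of the 10 genes, B2m being the exception, and DMSO library 3 was the highest for 8 of the 10. The share of all tested genes with this order was not counted, so the order is not shown to be particular to these genes. Over all tested genes, DMSO libraries 1 and 3 differed most among the replicate pairs (chi-square of 61.7 per gene). The part of the DMSO spread in the class I differences was not tested beyond leaving out each library. On the mean profile of the 10 genes, centred for each gene, DMSO libraries 1, 2 and 3 stood at -0.18, 0.16 and 0.33 on the log2 scale. EPZ6438 libraries 1, 2 and 3 stood at -0.20, 0.03 and -0.13. The tested genes outside the 10 whose profile over the 6 libraries lay closest to that mean were Atp6v1f, Cpt1c, Col6a1, Mtch1 and Gm20671, at root mean square distances of 0.0207 to 0.0355. None of these 5 passed the limma test (adjusted p from 0.384 to 0.607). Of the 10 genes, Tap1 lay nearest to their own mean (0.102) and Nlrc5 farthest (0.605), so the genes did not follow 1 shared profile.

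Ratios within a library set each gene beside the partner it works with or replaces. The 5 ratios were chosen after the values were seen, and with 3 libraries against 3 the exact permutation test (two-sided) cannot give a p below 0.1. Psmb8 over Psmb5, the standard subunit that PSMB8 replaces, was 0.330, 0.326 and 0.260 in DMSO and 0.146, 0.125 and 0.144 in EPZ6438. The EPZ6438 ratios did not reach the lowest DMSO ratio (log2 difference -1.14, exact permutation p = 0.1, 0.167 adjusted over the 5 ratios). Psmb9 over Psmb6 was 0.0404, 0.0439 and 0.0427 in DMSO and 0.0266, 0.0275 and 0.0240 in EPZ6438 (log2 difference -0.70). For this ratio the arms did not overlap (exact permutation p = 0.1, adjusted 0.167), while the RPKM of Psmb9 alone did overlap. The denominators had positive log2 changes that did not pass in limma, 0.25 for Psmb5 (adjusted p = 0.455) and 0.30 for Psmb6 (0.286). The log2 differences of these ratios thus hold the changes of both genes. Psmb10 over Psmb7 ran from 0.0426 to 0.196 in DMSO and from 0.0654 to 0.106 in EPZ6438, and overlapped (log2 difference -0.18, exact permutation p = 0.9).

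Of the transporter genes, neither of which passed the limma test alone, Tap2 over Tap1 was 1.52, 1.74 and 1.84 in DMSO and 1.02, 1.08 and 0.947 in EPZ6438, with no overlap (log2 difference -0.74, exact permutation p = 0.1, adjusted 0.167). The DMSO spread of this ratio was narrower than that of either gene alone. B2m over the sum of H2-K1 and H2-D1 was 7.25, 5.11 and 4.25 in DMSO and 4.31, 3.64 and 4.09 in EPZ6438. Here EPZ6438 library 1 lay above DMSO library 3, and the arms overlapped (log2 difference -0.43, exact permutation p = 0.2).

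**Figure D3:**
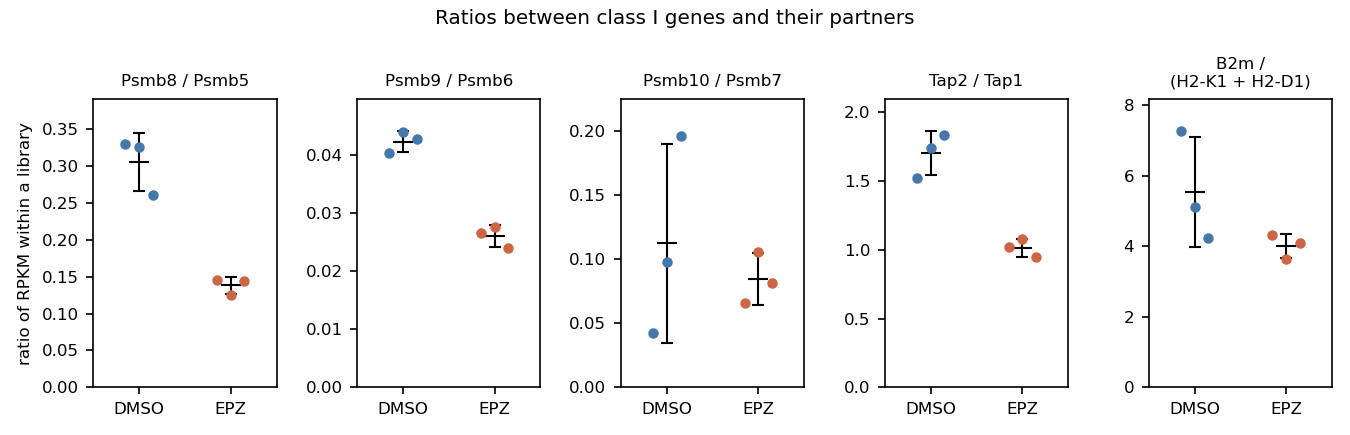
Ratio of RPKM within each library (y axis, linear from 0) for 5 pairs of partners in the 3 DMSO libraries (blue) and the 3 EPZ6438 libraries (orange, EPZ), with means and SD. Psmb8 / Psmb5 averages 0.305 in DMSO and 0.138 in EPZ6438 and Tap2 / Tap1 averages 1.70 and 1.01, both without overlap, while Psmb10 / Psmb7 overlaps.

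Other class I heavy chains were mostly low or absent. Of 16 listed genes, 7 could be tested. Of these, 2 fell (3.24% of all tested genes), 0 rose (3.80%) and 5 did not pass, with a median log2 change of -0.34. H2-M3, which presents N-formylated peptides, had 27.7, 27.7 and 27.9 RPKM in DMSO and 19.5, 19.7 and 19.9 in EPZ6438 (log2 change -0.49, limma adjusted p = 0.00702). Both arms of H2-M3 were tight and well apart, though the call was lost without DMSO library 2 (adjusted p = 0.0581) or EPZ6438 library 3 (0.0574). H2-T23, which encodes the non-classical molecule Qa-1, had 4.07, 4.28 and 5.13 RPKM in DMSO and 2.73, 2.59 and 3.13 in EPZ6438 (log2 change -0.65, limma adjusted p = 0.0369). That call was lost without any 1 library other than DMSO library 1 (adjusted p from 0.0636 to 0.133), and with no filter on low reads (0.0791). Cd1d1, which presents lipids and was singled out after its values were seen, went the other way without passing. It had 2.03, 1.28 and 1.503 RPKM in DMSO and 2.75, 2.67 and 2.74 in EPZ6438 (log2 change 0.75, limma adjusted p = 0.0524). Every EPZ6438 library of Cd1d1 was above every DMSO library, and it passed as higher in 7 of the 14 alternatives (adjusted p from 0.0152 to 0.181 over all 14). Of the 27 genes whose promoter holds the spaced X2 and Y letters, 22 were tested. Ibsp and Slc8a3 rose and H2-M3 fell, beside 7.04% of all tested genes that passed in either direction.

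None of the 14 standard core subunits passed the limma test, beside 7.04% of all tested genes that passed in either direction. Their smallest adjusted p was 0.286 and their median log2 change -0.01. The most abundant, Psmb1, had 257 ± 6.38 RPKM in DMSO and 246 ± 4.81 in EPZ6438 (SD, n = 3). Of 4 genes for the proteasome activator and for assembly, 2 fell (3.24% of all tested genes), both of them subunits of the interferon-inducible PA28 activator. Psme1 had 21.3, 22.5 and 22.5 RPKM in DMSO and 14.0, 15.3 and 13.2 in EPZ6438 (log2 change -0.64, limma adjusted p = 0.00667). Psme2 had 38.2, 35.2 and 36.3 RPKM in DMSO and 24.5, 25.6 and 27.8 in EPZ6438 (log2 change -0.50, limma adjusted p = 0.0137). In both genes the arms were apart by more than the spread within either. Without DMSO library 2 neither passed (adjusted p = 0.0527 for Psme1 and 0.0667 for Psme2), and Psme1 was also lost without EPZ6438 library 3 (0.0505). Psme2 was lost without any EPZ6438 library (0.0508 to 0.0719).

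Of 5 genes for peptide trimming and loading in the endoplasmic reticulum, 1 fell (3.24% of all tested genes). Erap1, the aminopeptidase that trims peptides there, had 14.1, 12.7 and 10.6 RPKM in DMSO and 8.18, 5.81 and 8.02 in EPZ6438 (log2 change -0.76, limma adjusted p = 0.0395). Its arms did not overlap, and the call was lost without any 1 library other than DMSO library 3 (adjusted p from 0.0769 to 0.153), and with no filter on low reads (0.0843).

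Of 20 regulators of class I transcription and interferon signalling, 1 rose (3.80% of all tested genes) and 1 fell (3.24%). The other 18 did not pass, and the median log2 change of the 20 was -0.16. Irf1, an interferon-induced transcription factor, had 14.1, 13.9 and 13.9 RPKM in DMSO and 10.7, 9.48 and 10.2 in EPZ6438 (log2 change -0.46, limma adjusted p = 0.0212). Jak2, a kinase of the interferon gamma receptor and of other receptors, had 15.4, 12.9 and 12.0 RPKM in DMSO and 22.04, 18.6 and 20.1 in EPZ6438 (log2 change 0.59, limma adjusted p = 0.0296). Neither gene showed overlap between arms. Each call was lost without DMSO library 2 (adjusted p = 0.115 for Irf1 and 0.136 for Jak2). Each was also lost without any EPZ6438 library, at adjusted p of 0.0627 to 0.113 for Irf1 and 0.0721 to 0.127 for Jak2. Jak2 was lost as well with no filter on low reads (0.0580). The interferon genes themselves could not be tested: Ifng is listed at 0 in all 6 libraries and Ifnb1 in all but DMSO library 2.

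Markers of other cells were set beside these values, since blood cells express class I genes strongly. Of 9 blood cell markers, Cd3e and Tyrobp are listed at 0 in every library and Ptprc, the pan-leukocyte gene, in all but DMSO library 1 (0.00290 RPKM). The 9 summed to 15.7 to 18.6 RPKM in DMSO and 18.8 to 21.6 in EPZ6438, most of it Lyz2 (15.6 ± 1.52 and 18.5 ± 1.21 RPKM, SD, n = 3). The summed ranges did not overlap, and their part in the class I values was not tested. The 3 that could be tested, Lyz2, Cd68 and Csf1r, had positive log2 changes (0.24, 0.24 and 0.52). Of these 3, 0 passed in limma, beside 7.04% of all tested genes. The smallest adjusted p in limma was 0.230, for Lyz2 (0.0455 unadjusted). Lyz2 and Csf1r were higher in every EPZ6438 library than in any DMSO library (12.0% of all tested genes). Csf1r was low, at means of 0.130 RPKM in DMSO and 0.238 in EPZ6438. The 4 endothelial markers summed to at most 0.0683 RPKM, and none could be tested; Pecam1, the most abundant, averaged 0.0381 RPKM in DMSO and 0.0361 in EPZ6438. Of 11 class II presentation genes 3 could be tested and 1 fell (3.24% of all tested genes), Cd74, the invariant chain gene. It had 1.88, 2.52 and 2.04 RPKM in DMSO and 1.04, 1.32 and 1.13 in EPZ6438 (log2 change -0.82, limma adjusted p = 0.0304). The Cd74 call was lost without DMSO library 2 (adjusted p = 0.130) or any EPZ6438 library (0.0664 to 0.128), with no filter (0.0984) and by voom (0.0557). Ciita, the class II transactivator gene, reached at most 0.0171 RPKM.

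The peak lists hold positions with no height or score, 1 merged list per mark and arm from 2 samples each, so the peak counts have no replicate error and no test. The depth behind them is unknown, and lists of different length show presence of calls rather than amounts of a mark. Within 10 kb of the gene, H3K27me3 peaks were present for 5 of the 10 class I genes in DMSO (56.9% of all tested genes) and for 2 in EPZ6438 (12.0%). The 5 were H2-K1, H2-D1, B2m, Psmb9 and Nlrc5, and the 2 were H2-D1 and Nlrc5. These shares are near the background of each list. H3K4me3 peaks were present for 9 of the 10 in DMSO (73.5% of all tested genes), all but Psmb10, and for all 10 in EPZ6438 (77.1%). Neighbouring genes share peaks: 4 H3K4me3 peaks of each list lay in more than 1 window.

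Nlrc5, the gene that rose, was also the only 1 of the 10 with an H3K27me3 peak touching the gene itself, in either arm. In DMSO, 16.8% of all tested genes had such a peak, and in EPZ6438 3.47%. Nlrc5 is also the longest of the 10. Its gene plus 10 kb spans 74510 bases, against 22665 (Psmb10) to 33390 (Tapbp) for the others. A longer gene offers more room for a peak to touch it, and these shares were not matched for gene length. None of the 10 lost or gained its only such call: 0 had a peak touching the gene in DMSO and none in EPZ6438 (13.5% of all tested genes), and 0 the reverse (0.155%). Nlrc5 had 7 such peaks in DMSO and 2 in EPZ6438. With those in its flanks, they covered 6.62% of the gene plus 10 kb in DMSO and 0.584% in EPZ6438. The widest of the 7, chr8:94481972-94483173, spans 1202 bases and overlaps no EPZ6438 peak of that mark. The DMSO peak chr8:94485002-94485654 overlaps an H3K4me3 peak of each arm, chr8:94485556-94485732 in DMSO and chr8:94485558-94485867 in EPZ6438. Of the 2 EPZ6438 peaks, chr8:94524272-94524458 overlaps a DMSO peak and chr8:94473493-94473740 overlaps none. Whether the loss of peaks bears on the RNA of Nlrc5 was not tested.

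At the other genes the H3K27me3 peaks lay in the flanks. H2-K1 had 5 in DMSO, covering 11.5% of its window, and 0 in EPZ6438. H2-D1 had 4 in DMSO (10.0% of its window) and 1 in EPZ6438 (1.71%), and that 1 overlaps the widest of the DMSO peaks, chr17:35275916-35277726. B2m and Psmb9 had 2 each in DMSO and 0 in EPZ6438. Tap1, Tap2, Tapbp, Psmb8 and Psmb10 had none within 10 kb in either arm. Tapbp and Psmb8, whose RNA fell, are among these genes. Within 20 kb, Tap1 and Tapbp did have a called H3K27me3 peak in DMSO. Whether the mark bears on the RNA of Tapbp and Psmb8 was not tested.

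Of the start sites whose promoters are printed above, 4 had an H3K4me3 peak nearby in both arms: H2-K1, H2-D1, B2m and Tap1. In EPZ6438 a peak covered the starts of H2-D1 (434 bases wide) and Tap1 (265 bases), while in DMSO the nearest peaks began 7 and 291 bases downstream. The nearest peak to the H2-K1 start was 62 bases downstream and 177 bases wide in DMSO, and 55 bases downstream and 976 bases wide in EPZ6438. At B2m it was 276 bases downstream and 559 bases wide in DMSO, and 194 bases downstream and 941 bases wide in EPZ6438. The H3K4me3 peaks of the whole EPZ6438 list were also wider, with a median of 401 bases against 212, and fewer, 16216 against 40113.

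An H3K4me3 peak touched 8 of the 10 genes in DMSO (54.2% of all tested genes) and all 10 in EPZ6438 (66.7%). Psmb8 and Psmb10 had such a peak in EPZ6438 and none in DMSO, as did 17.9% of all tested genes, and 0 had the reverse (5.47%). At Psmb8 the nearest peak to the start was 6347 bases downstream in DMSO and 125 bases downstream in EPZ6438 (481 bases wide). At Psmb10 the distances were 27178 bases upstream in DMSO and 224 bases downstream in EPZ6438. For Psmb8 the added peak call and the lower RNA thus stood on the same gene. Psmb10 RNA did not pass the test. Nlrc5, which rose, had 2 H3K4me3 peaks touching the gene in DMSO and 1 in EPZ6438. The DMSO peak chr8:94524189-94524423 overlaps no EPZ6438 peak of that mark. With no promoter window matched to Nlrc5, these peaks were not placed against its start.

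**Figure D4:**
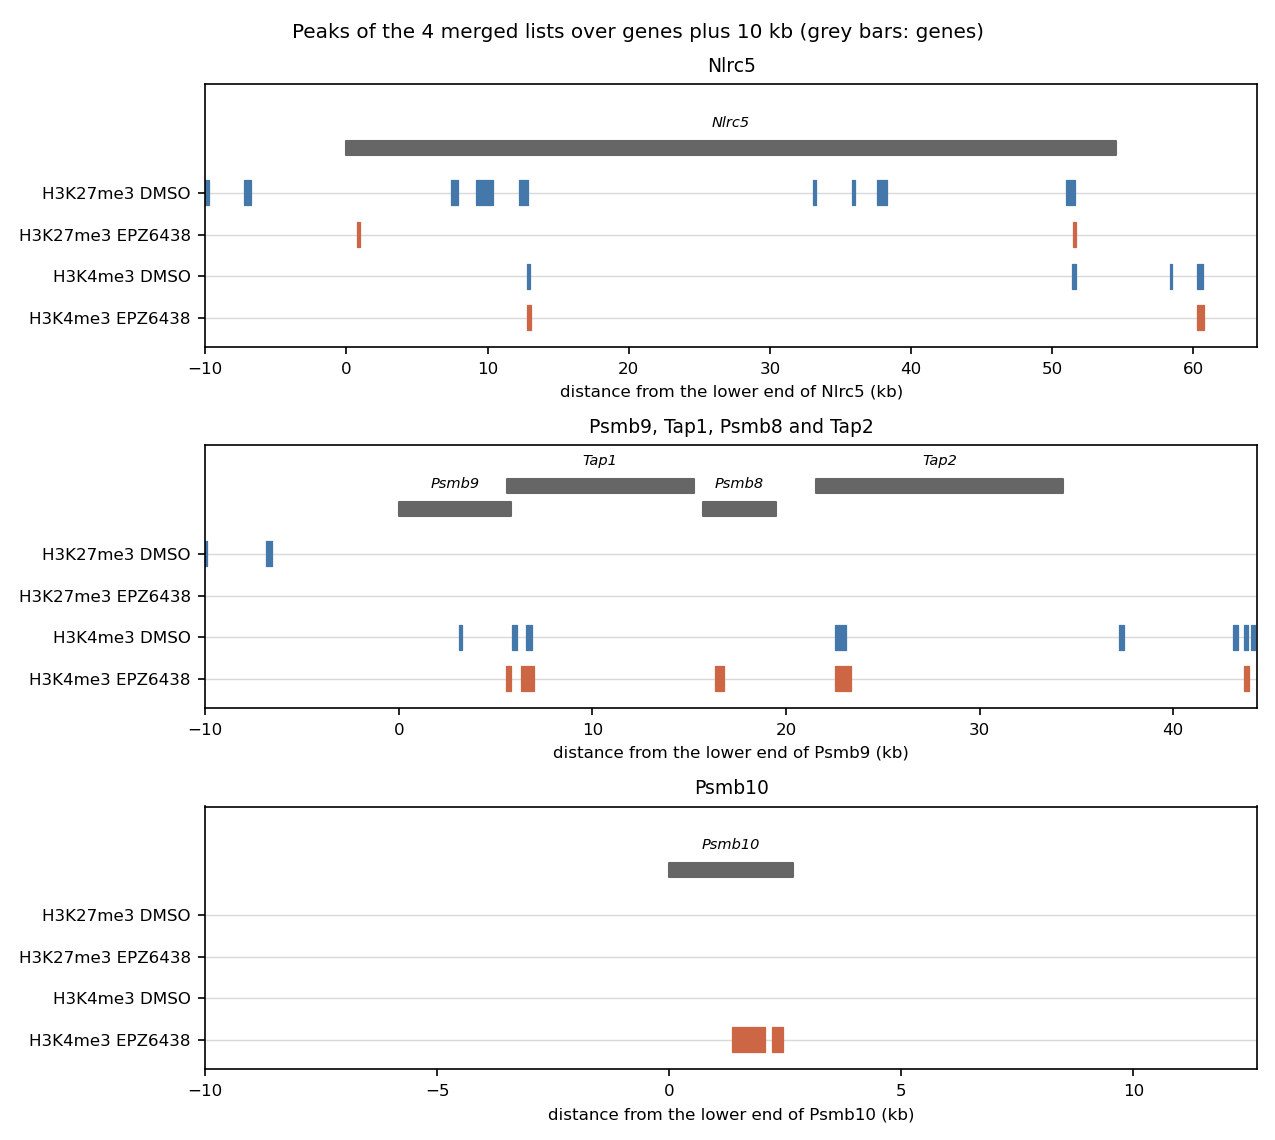
Positions of called peaks over Nlrc5, over the neighbouring genes Psmb9, Tap1, Psmb8 and Tap2, and over Psmb10, each with 10 kb to both sides; the x axis is the distance in kb from the lower end of the first gene, rows are the 4 merged lists (blue, DMSO; orange, EPZ6438), and grey bars are genes. Nlrc5 carries 7 H3K27me3 peaks in DMSO and 2 in EPZ6438, and an H3K4me3 peak lies over Psmb8 and 2 lie over Psmb10 in EPZ6438 and none in DMSO.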

How the data were processed

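Expression was measured in 3 DMSO and 3 EPZ6438 samples. The table the authors deposited gives RPKM per gene with gene positions, per the file headers. The peak files the authors deposited, 1 per mark and arm, hold other values: start and end positions without a score. Per the file names they come from merged samples set against input. Per the submitters' processing notes, which give no roles, the build was mm10 and the tools were STAR 2.6.1c, Subread, bcl2fastq, FastQC, MACS2, HOMER, Picard and DiffBind. Annotation release, strand setting and caller thresholds: not given in the sources used here.

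Multiplied by length plus 1 base, in kb, the RPKM of each library summed to 1000000, and the smallest step turned 100% of values into whole reads (tolerance 0.001). A gene entered the test with 10 or more of these reads in 3 or more libraries. The test was limma 3.58.1 (trend, empirical Bayes, two-sided, no block; R 4.3.3) on log2(RPKM + 0.1), with Benjamini-Hochberg adjustment over all 14213 genes, and was tested on simulated data. The simulated reads were drawn independently for each gene and library, so that check does not cover shifts shared by many genes of a library. Replicates of an arm differed by more than sampling noise (chi-square of 6.47 to 61.7 per gene), so each counted as 1 sample.

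Peaks were matched to genes plus 10 kb with an overlap of at least 1 bp, and motifs searched in RefSeq promoter windows, in Python 3.11.15. The members and gene lists were chosen with earlier results of these data known. All 10 members were named, with, for each list, the 4 or fewer passing genes of smallest adjusted p (where none passed, the gene of highest RPKM), and the 5 genes closest to the members' mean profile. Other names, the ratios and the motif spacing were chosen after values were seen. The alternatives were other filters, pseudocounts of 0.01, 0.5 and 1 RPKM, median-of-ratios scaling, voom, a replicate block, leaving out each library, and other windows, overlaps and peak widths. The result of 1 gene is not reported here.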

Additional observations from a re-analysis of the deposited data

How the results depend on the processing

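Of the 10 class I genes, Psmb8 passed the limma test under all 14 alternatives. The number that rose was 1; it was 0 with no filter on low reads, and 0 to 1 when each library was left out, the 1 then being H2-K1 (without DMSO replicate 3), not Nlrc5. The number that fell was 2; it was 1 with no filter, 1 with median-of-ratios scaling, and 1 to 3 when each library was left out. Calls over all genes, 540 higher and 461 lower, were 355 and 273 with no filter. They were 190 to 242 higher and 93 to 167 lower without DMSO replicate 2 or any 1 EPZ6438 replicate. The sign of small changes turned. Leaving out each library gave log2 changes of -0.14 to 0.081 for H2-D1, -0.16 to 0.10 for Tap1 and -0.68 to 0.19 for Psmb10. The change of H2-D1 was -0.14 without DMSO replicate 1, -0.0022 without EPZ6438 replicate 2 and -0.0024 without EPZ6438 replicate 3. That of Tap1 was 0.0093 with median-of-ratios scaling, 0.10 without DMSO replicate 3 and 0.064 without EPZ6438 replicate 1. That of Psmb10 was 0.19 without DMSO replicate 3. The cause was not tested.

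With the replicate number as a block, 559 genes were higher and 492 lower, and Tap2 passed (adjusted p = 0.0243), so 3 class I genes fell and 1 rose; no call among the 10 was lost. Column headers share a prefix between same-numbered libraries of the arms, and the labels do not say if it marks a shared culture. In their deviations from the arm mean, same-numbered libraries correlated at 0.41, 0.0781 and 0.0561. DMSO library 3 correlated best with EPZ6438 library 2 (0.331). With so few libraries per arm these correlations cannot decide whether the numbers pair the samples.

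Genes with an H3K27me3 peak in DMSO, 5 within 10 kb, numbered 1 for the gene alone, 1 within 1 kb, 3 within 5 kb and 3 for peaks of at least 400 bp. Within 20 kb they numbered 7, with Tap1 and Tapbp added. In EPZ6438, 2 became 1 under each of the 4 narrower settings, Nlrc5 for the gene alone, 1 kb and 5 kb and H2-D1 for peaks of at least 400 bp, and became 3 within 20 kb, with B2m added. Planned edgeR and DESeq2 fits were not run, since the deposited unit is RPKM. Among the 10, Nlrc5 had the fewest reads, 48 to 199 per library.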
